A study of Mus musculus with 4 samples.

Results

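Chromatin accessibility was described around the 9 genes of the growth-plate loop that joins Indian hedgehog to parathyroid hormone-related protein (PTHrP): Ihh, Pthlh, Pth1r, Ptch1, Smo, Gli1, Gli2, Gli3 and Hhip. The members were chosen by name, and every peak in a gene or within 50 kb of either end was kept, with gene positions from RefSeq on GRCm38. The 9 windows held 241 sites, a site being a place where peaks of any library overlapped by at least 1 bp, of 172311 sites in the series, and the genes were 9 of 21887 protein-coding genes. ATAC-seq, in which a transposase cuts open chromatin and inserts sequencing adapters, was performed on knee-cartilage chondrocytes of C57BL/6 mouse pups at postnatal days 0 to 4. P0 chondrocytes had spent less than 24 h in culture, and P8 chondrocytes had been passaged 8 times, each time after the cell number had doubled, in DMEM/F12 medium with 10% fetal bovine serum. Each passage had 2 libraries, which are called A and B here because the peak names do not say which labelled replicate they are. Nothing in the labels says that the replicates came from separate cultures or animals, so their spread may be technical. Both groups were wild-type for all that the labels state, and P8 cells differed from P0 cells in passage number and in time in culture together.

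In the growth plate, prehypertrophic chondrocytes secrete Indian hedgehog, which binds the receptor Patched 1 and so releases Smoothened, and the signal reaches the nucleus through the Gli transcription factors. Ptch1, Gli1 and Hhip are themselves classic targets of the pathway, and the Ptch1 and Hhip proteins restrain it. Hedgehog signalling maintains the expression of Pthlh, whose product PTHrP acts on its receptor Pth1r to keep chondrocytes proliferating and to delay hypertrophy.

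Before the results, the libraries differed in depth and in peak number. The libraries held 145703 (P0 library A), 119974 (P0 library B), 89610 (P8 library A) and 99784 (P8 library B) peaks. The lowest background that the peak caller used, a measure of depth, was 194, 162, 140 and 134 tags per 10 kb in the same order. P0 library A was thus the deepest and richest in peaks, and the P8 libraries had the lower values on each measure. Counts were therefore also taken at a matched background, keeping peaks that would pass after pileup and background were both scaled down to the depth of the shallowest library, and with equal peak numbers, taking the 89610 strongest of every library. Read totals are not in the peak lists.

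The labelled cell type was checked against the starts of marker genes. A start peak is one that overlaps the stretch from 250 bases before to 50 after any listed start, or, for genes with no listed start, lies within 1 kb of either gene end. Over the 17492 protein-coding genes with a listed start, 55.0% had a start peak in all 4 libraries. Of 10 chondrocyte markers, 8 had a peak at the start in all 4 libraries, among them Sox9, Col2a1, Acan and Comp, Col11a2 had one in the P0 libraries only and Sox5 in none. The windows of these 10 genes held 373 and 298 peaks in the P0 libraries and 172 and 205 in the P8 libraries. The fibroblast markers Col1a1, Col3a1 and Dcn had a start peak in all 4 libraries, Thy1 in all but P8 library B and Pdgfra in none, with 79 and 63 window peaks in the P0 libraries and 54 and 62 in the P8 libraries. Of 5 blood and macrophage markers only Spi1 had a start peak in all 4 libraries, Cd68 had one in the P0 libraries, and the other 3, Ptprc among them, had none. Their windows held 62, 46, 35 and 43 peaks in P0 libraries A and B and P8 libraries A and B. Of 4 endothelial markers, Kdr had a start peak in all 4 libraries, Tek in all but P0 library B, and Pecam1 and Cdh5 in none (window peaks 36, 30, 19 and 29 in the same order). Of 4 osteoblast markers, Sp7 had a start peak in all 4 libraries, Ibsp in the P0 libraries only, and Bglap and Dmp1 in none (49, 47, 35 and 40). Of 3 muscle markers, Myod1 had one in all 4 libraries and Myog and Myf5 had none (24, 18, 9 and 11). The part of other cell types in the results was not tested. In bulk libraries, fewer cells with an open site and less opening per cell cannot be told apart.

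The promoters of 8 of the 9 members were in the RefSeq table (GRCm38.p6), with 10 starts in all, because Pth1r has 3. Of these 10, 5 are shown, each as the 250 bases before the start, 5′ to 3′ on the strand of the gene: Hhip and Ihh because a peak lay at their starts in P0 chondrocytes only, Pthlh because its start held a peak in all 4 libraries, and 2 starts of Pth1r because one held a peak in all 4 libraries and the other in none. Capitals mark motif letters found by a search of both strands for GLI (GACCACCCA), CRE (TGACGTCA, which reads the same on both strands), AP-1 (TGACTCA) and SOX (ACAAT). None of these letters overlapped another motif.
Hhip, chr8:80058009-80058258, minus strand: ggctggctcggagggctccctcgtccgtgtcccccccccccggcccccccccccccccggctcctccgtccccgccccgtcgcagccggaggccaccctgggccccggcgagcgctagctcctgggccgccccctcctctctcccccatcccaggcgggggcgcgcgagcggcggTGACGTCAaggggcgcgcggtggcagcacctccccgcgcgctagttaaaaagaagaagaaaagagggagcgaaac
Ihh, chr1:74951673-74951922, minus strand: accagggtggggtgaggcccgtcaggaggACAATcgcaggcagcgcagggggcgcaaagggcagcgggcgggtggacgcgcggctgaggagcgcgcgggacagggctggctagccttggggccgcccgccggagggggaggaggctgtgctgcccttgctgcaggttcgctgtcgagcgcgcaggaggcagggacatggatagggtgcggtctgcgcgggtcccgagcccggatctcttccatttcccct
Pthlh, chr6:147264014-147264263, minus strand: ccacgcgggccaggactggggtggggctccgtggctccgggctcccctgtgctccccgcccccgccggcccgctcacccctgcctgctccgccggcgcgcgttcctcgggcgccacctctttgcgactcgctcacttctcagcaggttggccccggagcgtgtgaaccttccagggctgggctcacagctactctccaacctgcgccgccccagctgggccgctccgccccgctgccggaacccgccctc
Pth1r, start with a peak in all 4 libraries, chr9:110742611-110742860, minus strand: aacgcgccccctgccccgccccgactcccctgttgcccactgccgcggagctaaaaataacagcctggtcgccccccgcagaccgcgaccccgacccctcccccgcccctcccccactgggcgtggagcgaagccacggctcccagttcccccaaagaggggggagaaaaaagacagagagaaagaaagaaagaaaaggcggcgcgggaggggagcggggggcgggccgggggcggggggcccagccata
Pth1r, start with no peak, chr9:110747146-110747395, minus strand: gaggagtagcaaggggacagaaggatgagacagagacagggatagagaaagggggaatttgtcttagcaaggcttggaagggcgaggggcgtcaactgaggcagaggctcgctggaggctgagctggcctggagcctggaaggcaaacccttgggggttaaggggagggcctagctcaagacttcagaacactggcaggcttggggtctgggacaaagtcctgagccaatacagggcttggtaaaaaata

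The Hhip promoter held the CRE letters 75 bases before the start, at chr8:80058076-80058083, inside the peak of both P0 libraries. The Ihh promoter held the SOX letters 221 bases before the start, at chr1:74951889-74951893, inside the peak of P0 library A alone. The other 8 promoters held none of the 4 motifs. Among 21263 protein-coding promoters of the same length, 1.92% held CRE, 25.1% SOX, 4.06% AP-1 and 0.16% GLI, so a match to SOX was common and a match to GLI rare everywhere. A match is a description of letters and not a binding site. The GC content of the members' promoters ran from 56.0% to 78.4%, against a median of 55.6% over all promoters. The Pth1r start without a peak had the lowest GC content, 56.0%, and the lowest ratio of observed to expected CpG, 0.18, where the start with a peak in all 4 libraries had 70.4% and 0.71, and the median CpG ratio of all promoters was 0.53.

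More peaks surrounded these genes in P0 than in P8 chondrocytes. The 9 windows held 212 and 189 peaks in the P0 libraries and 107 and 120 in the P8 libraries. The means were 200.5 ± 16.3 and 113.5 ± 9.19 (SD, n = 2 each), a ratio of 1.77 ± 0.20. The groups did not overlap, and the exact two-sided permutation p was 0.33, the smallest that 2 libraries against 2 allow. Over the whole series the same ratio was 1.40 ± 0.22, and the margin between the ratios was of the order of their spread. The length under peaks was 66.0 and 54.7 kb at P0 and 27.8 and 33.7 kb at P8, a ratio of 1.96 ± 0.37 against 1.66 ± 0.32 for the series. With equal peak numbers, the windows held 143 and 136 peaks at P0 and 107 and 109 at P8, a ratio of 1.29 ± 0.05 where the ratio of the whole series is 1 by construction.

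Of the 9 genes, 8 had more peaks in both P0 libraries than in either P8 library, and none had the reverse. Across the 20365 protein-coding genes with a peak in their window, 48.3% had more peaks in both P0 libraries and 3.95% in both P8 libraries. Genes with many peaks separate more easily, and of the 12236 genes with a mean of at least 10 P0 peaks 59.8% had more in both P0 libraries, as did 5 of the 6 members of that size. That set was picked by P0 peaks alone, which by itself favours higher P0 numbers, in the members as in the other genes. At matched background the count was again 8 of 9, against 46.7% of genes. With equal peak numbers it was 7 of 9, against 16.5% of genes, and Gli1 was the one that dropped out beside Smo. The count also moved with the window. It was 6 of 9 within 10 kb, where 35.9% of genes had more peaks in both P0 libraries, 9 of 9 within 100 kb (56.1%) and 6 of 9 in the gene bodies (30.6%). Within 10 kb Pthlh overlapped, with 4 and 3 peaks at P0 and 3 and 3 at P8, as did Smo and Gli1, and in the gene bodies Pth1r, Smo and Gli1 overlapped. The ratio of P0 to P8 peaks ran from 1.11 for Smo to 4.25 for Ihh. The Ihh ratio rests on few peaks, and it was 2.50 ± 0.707 with equal peak numbers and 2.30 ± 0.325 within 100 kb. At a −log10 p of at least 10 it was 7 ± 10, a spread wider than the ratio itself. Among the 12236 genes with at least 10 P0 peaks, which do not include Ihh, Pthlh or Hhip, the median ratio was 1.32, with 1.0 and 1.88 as the 10th and 90th percentiles.

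**Figure D1:**
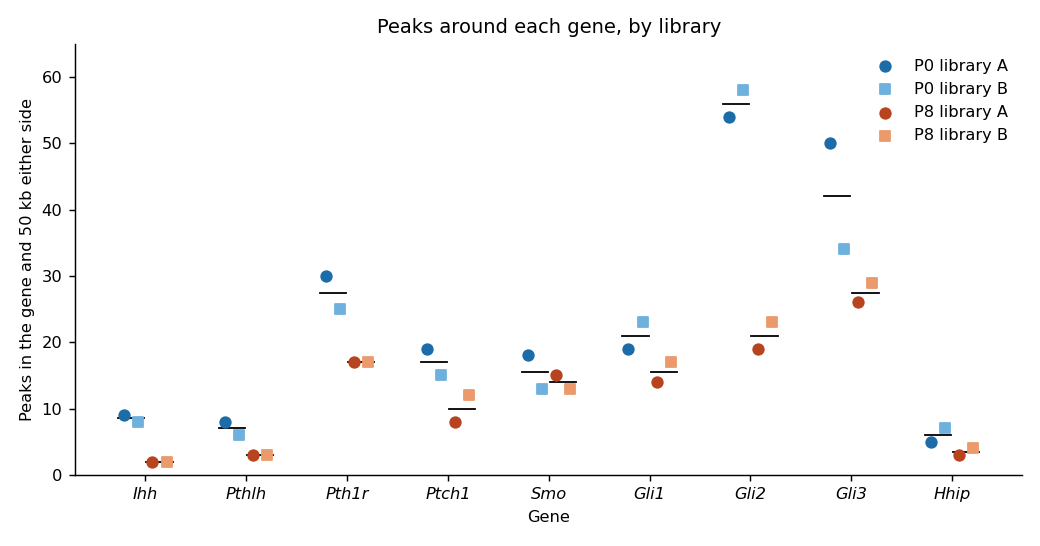
Peaks in each gene and 50 kb either side (vertical axis, number of peaks) for the 9 genes, with 1 point per library and a bar at the mean of the 2 libraries of a passage. The P0 points lie above the P8 points for every gene but Smo, and the gap is widest for Gli2, with 54 and 58 peaks at P0 and 19 and 23 at P8.

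The sites fell into classes by the libraries that held a peak there. Of the 241 sites, 51 (21.2%) had a peak in both P0 libraries but in neither P8 library, against 17.0% of all sites of the series. Only 1 site (0.415%) had a peak in both P8 libraries but neither P0 library, against 1.84%, and 76 (31.5%) had one in all 4, against 32.4%. A further 83 sites (34.4%) had a peak in 1 library only, against 33.1%. The shares thus lay near those of the series, with the P0-only class a little above and the P8-only class below. With equal peak numbers, 29 of 177 sites were P0-only (16.4%, against 11.0% of the series) and 7 were P8-only (3.95%, against 5.08%). With 1 library left out, a single library stands for its passage, and no share of the series was taken in that setting. The P8-only count was then 8 without P0 library A, 9 without P8 library A and 6 without P8 library B. The P0-only count was 84 without P0 library A and 103 without P0 library B. The count of sites with a peak in all 4 libraries was 34 at a −log10 p of at least 10. At a reciprocal overlap of 50%, peaks of library A were counted in place of sites, again without a share of the series. There 13 peaks of P8 library A had such an overlap with P8 library B and with no P0 peak. A P8 peak inside a much wider P0 peak can be among them. In the same setting, 35 peaks of P0 library A had such an overlap in every other library. A missing peak means that the tags there did not pass the caller's threshold, not that the chromatin was closed. The 76 sites with a peak in all 4 libraries were wide, with a median of 503.5 bp, against 226 bp for the P0-only sites and 92 bp for the sites of 1 library. Most sites were far from the starts: 10 of the 51 P0-only sites and 18 of the 76 shared sites lay within 10 kb. Of all 241 sites, 136 were inside a member gene.

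**Figure D2:**
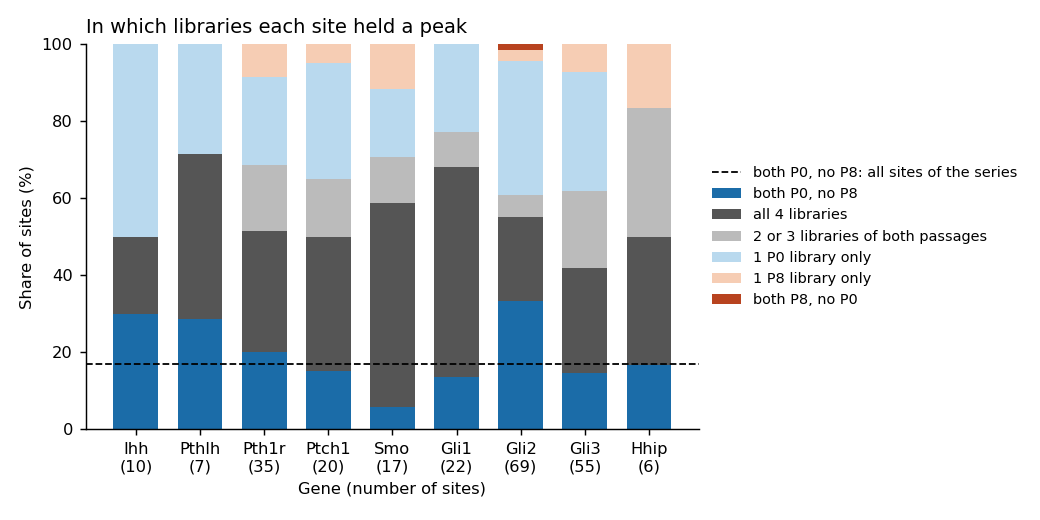
Share of the sites around each gene (vertical axis, percent) by the libraries in which the site held a peak, with the number of sites under each name and a dashed line at the 17.0% of all sites of the series that had a peak in both P0 libraries only. Gli2, Ihh and Pthlh rise furthest above the line (33.3%, 30.0% and 28.6%), and Smo lies lowest (5.88%).

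Peak height was compared where a peak existed in all 4 libraries. The fold enrichment, which is the number of tags over the local background with 1 added to each, was higher in both P0 libraries than in either P8 library at 32 of the 76 sites and higher in both P8 libraries at 15. Over all 55890 such sites of the series the shares were 49.9% and 11.6%, so these sites stood out less for P0 than the series did. The median over the 76 sites of the mean fold enrichment was 7.34 at P0 and 6.31 at P8. On a second scale, the tag pileup scaled to the depth of the shallowest library, 51 of the 76 sites were higher in both P0 libraries and 5 in both P8 libraries, against 50.1% and 15.7% of the series. The median ratio of P0 to P8 was 1.38 in scaled pileup and 1.08 in fold enrichment, where the series had 1.18 and 1.15. The scales therefore placed the members on opposite sides of the series, above it in scaled tags and below it in fold enrichment, and which of them reflects accessibility was not tested. Taken over all peaks in the windows, the median fold enrichment was 5.03 (library A) and 5.21 (library B) at P0, and 5.44 and 5.57 at P8. The ratio was 0.93 ± 0.03 (exact two-sided permutation p = 0.33), against 1.01 ± 0.07 for the series. The ratio of the windows turned to 1.03 with equal peak numbers.

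**Figure D3:**
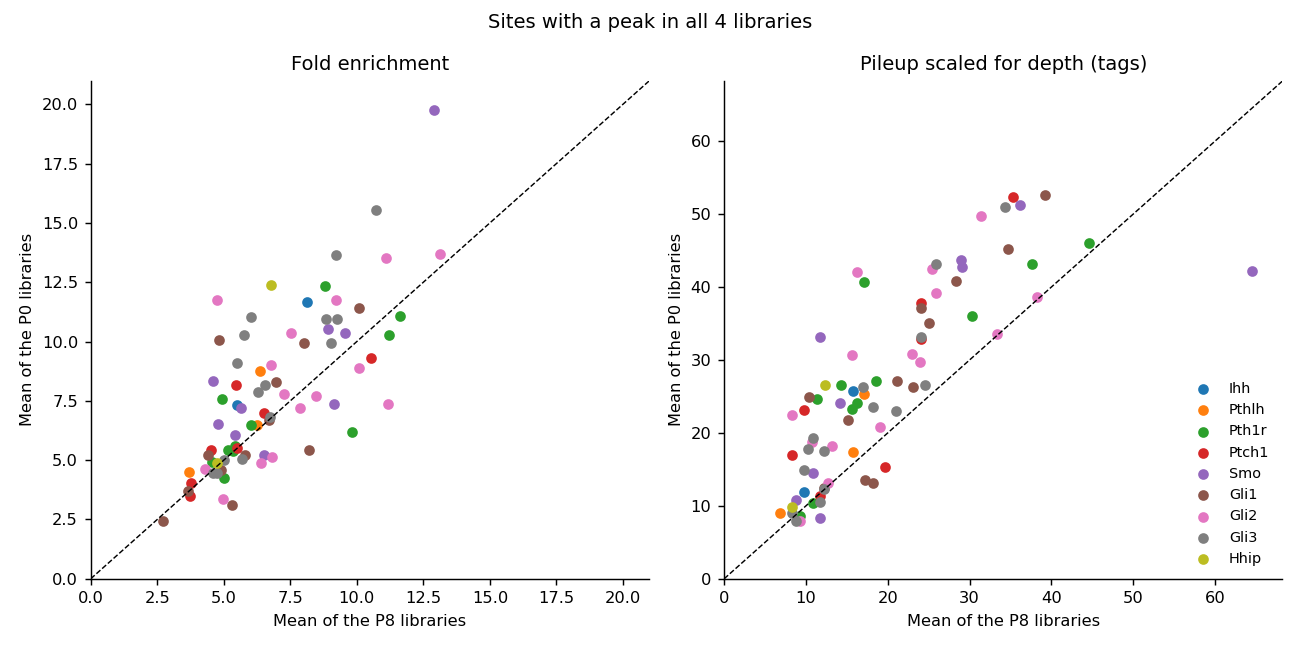
Mean of the 2 P0 libraries against the mean of the 2 P8 libraries at the 76 sites with a peak in all 4 libraries, in fold enrichment (left) and in tag pileup scaled for depth (right), 1 point per site, coloured by gene, with a dashed line of equality. More points lie above the line in scaled pileup, with a median ratio of 1.38, than in fold enrichment, with a median ratio of 1.08.

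For each gene, 3 kinds of site were named by rule: the peak nearest the start, the site with the highest value in any library, here called the highest, and the highest site with peaks in both libraries of 1 passage alone. Any other site named was chosen after its values were seen.

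Of the ligands, Ihh (chr1:74945315-74951672, minus strand) had no peak in or at the gene at P8. Its window held 9 and 8 peaks in the P0 libraries and 2 in each P8 library. The gene body and start had 5 of the 10 sites, and each of these held a peak at P0 only. At the start itself the 2 P0 libraries had different, narrow peaks, with fold enrichment of 4.22 at chr1:74951749-74951911 in library A and 3.87 at chr1:74951621-74951695 in library B. The highest P0-only site was inside the gene at chr1:74948819-74949156, 2.52 kb from the start, with fold enrichment of 4.94 and 5.75. The median over all peaks in the window was 4.22 in P0 library A and 5.75 in P0 library B, so of these 4 values only the start peak of library B lay below its library's median. A start peak in both P0 libraries but neither P8 library was found for 3.46% of the 17492 protein-coding genes with a listed start, and for Ihh and Hhip among the members.

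Both sites around Ihh with a peak at P8 lay outside the gene. One was 12.8 kb upstream at chr1:74964505-74965569, between Ihh and Nhej1, a gene of DNA end joining. Its fold enrichment was 12.4 and 10.9 in the P0 libraries and 5.93 and 10.3 in the P8 libraries, the highest of the window in each library, and both P8 values lay below both P0 values. The other was inside Cfap65, 24.6 kb downstream of the start (8.28 and 6.41 at P0, 4.94 and 6.06 at P8, with groups that overlapped in scaled pileup). The peak numbers of Ihh with equal peak numbers were 4 and 6 against 2 and 2, a smaller gap in which the groups did not overlap.

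Pthlh (chr6:147252109-147264013, minus strand), which encodes PTHrP, had a start peak in all 4 libraries. Its window, with no other gene in it, held 8 and 6 peaks in the P0 libraries and 3 in each P8 library. The start site at chr6:147263758-147264389 was also the highest of the window and had fold enrichment of 8.43 and 9.08 at P0 and 6.77 and 5.94 at P8. A second shared site, 2.88 kb downstream of the start inside the gene, had 6.42 and 6.54 at P0 and 5.09 and 7.45 at P8, and these groups overlapped. Both sites of Pthlh with a peak in the 2 P0 libraries alone lay beyond the 3′ end of the gene, and another 2 sites held a peak in P0 library A alone. The higher, chr6:147232575-147233234, lay 30.8 kb downstream of the start and had fold enrichment of 8.28 and 7.32 from 19 and 15 tags. The other, chr6:147240274-147240486, lay 23.5 kb downstream and had 5.80 and 7.78. Neither had a peak in either P8 library.

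**Figure D4:**
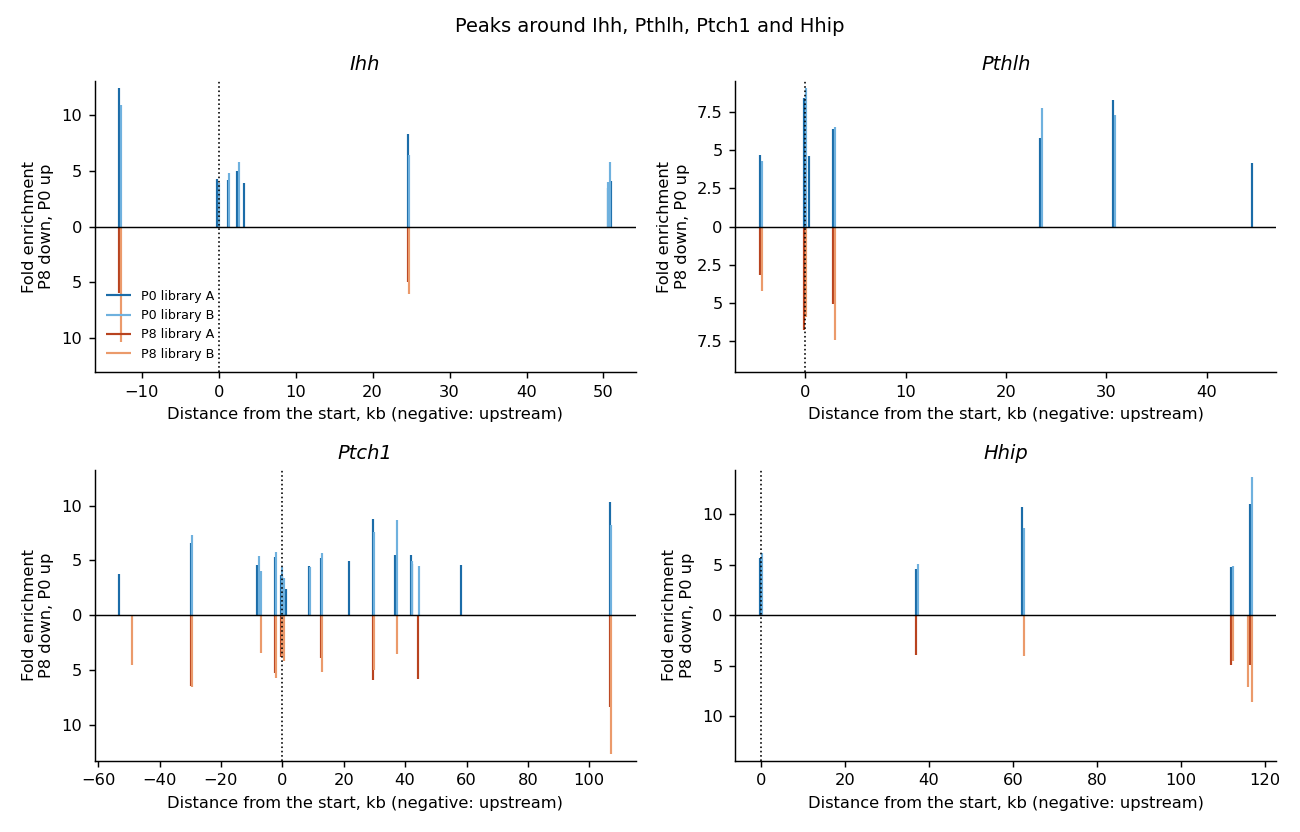
Fold enrichment (vertical axis, P0 libraries upward and P8 libraries downward) of every site against its distance from the start of the gene in kb (horizontal axis, negative upstream) for Ihh, Pthlh, Ptch1 and Hhip, with 1 line per library and the lines of libraries A and B set slightly apart. The peaks at the start of Ihh and Hhip have no counterpart below the axis, and the start of Pthlh does.

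Of the receptors, Ptch1 (chr13:63508328-63573460, minus strand), which binds Hedgehog ligands, had shared peaks around its start. Its window held 19 and 15 peaks at P0 and 8 and 12 at P8. The stretch from 250 bases before to 50 after the listed start held a peak in P0 library A and P8 library B only. Close by, however, the site chr13:63565946-63566468, 211 bp upstream, had a peak in all 4 libraries, with fold enrichment of 3.69, 4.40, 3.81 and 3.71 in P0 libraries A and B and P8 libraries A and B, and scaled pileup of 36.0, 39.7, 22.0 and 26. Upstream by 2.11 kb, at chr13:63567841-63568282, the fold enrichment was 5.29 and 5.75 at P0 against 5.31 and 5.72 at P8, and the scaled pileup 51.9 and 52.9 at P0 and 30.6 and 40 at P8. The values in fold enrichment overlapped and those in scaled pileup did not. In the gene body, 29.8 kb downstream, chr13:63534997-63535913 was higher at P0 in fold enrichment (8.77 and 7.58 against 5.93 and 5.00). The highest value of the window was in Fancc, 107 kb downstream, with 10.3 and 8.24 at P0 and 8.41 and 12.6 at P8, which overlapped. Of the 3 P0-only sites the highest was chr13:63523500-63523725, inside the gene, with 5.49 and 4.95.

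Smo (chr6:29735497-29761366, plus strand), which encodes the signal transducer Smoothened, was the member whose peak numbers overlapped between passages. Its window held 18 and 13 peaks at P0 and 15 and 13 at P8. The start site at chr6:29735258-29736613 had fold enrichment of 10.1 and 11.0 at P0 and 7.18 and 10.7 at P8, so P8 library B lay above P0 library A. In scaled pileup the groups did not overlap, with 40.8 and 44.6 at P0 against 20.1 and 38 at P8. One site inside the gene, chr6:29747718-29749155, 12.2 kb downstream of the start, ran the other way. Its fold enrichment was 6.73 and 8.03 at P0 against 9.23 and 9.09 at P8, from 54 and 57 tags at P0 and 67 and 65 at P8, although the P8 libraries were shallower. Scaled for depth, the pileup there was 37.4 and 47.1 at P0 against 64.2 and 65 at P8. Of the 17 sites in the window, 8 lay in the neighbours Tspan33 and Ahcyl2, among them the highest, chr6:29693941-29694409 in Tspan33, with 20.0 and 19.6 at P0 and 10.5 and 15.3 at P8. The only P0-only site, chr6:29744162-29744381, lay in the gene and had fold enrichment of 5.05 and 4.71.

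Pth1r (chr9:110722085-110747145, minus strand), the receptor of PTHrP, had peaks at some of its starts and not at others. The window held 30 and 25 peaks at P0 and 17 in each P8 library. At the start at position 110742610, the site chr9:110742156-110742705 had fold enrichment of 5.19 and 5.55 at P0 and 5.51 and 5.15 at P8, which overlapped. Its scaled pileup was 23.5 and 23.1 at P0 against 15.3 and 16 at P8, which did not. The start at position 110743686 held a peak in every library but P8 library B, with 4.48 and 4.42 at P0 and 3.97 in P8 library A. No library had a peak at the start at position 110747145, yet 1.24 kb upstream of it chr9:110748385-110748822 had 10.1 and 10.5 at P0 and 11.8 and 10.6 at P8. In scaled pileup that site was the higher at P0, with 36.7 and 35.5 against 31.6 and 29. Inside the gene, 9.60 kb downstream of the start at position 110742610, chr9:110732561-110733013 was higher at P8 in fold enrichment (5.65 and 6.70 at P0, 10.2 and 9.37 at P8). Its scaled pileup, however, was 40.1 and 46.3 at P0 against 37.4 and 38 at P8. In the P0 libraries the highest site of the window was in Ccdc12, chr9:110709738-110710206, with 11.7 and 13.0 at P0 and 9.35 and 8.23 at P8. In the P8 libraries it was chr9:110781244-110782187, between genes and 34.1 kb upstream of the start at position 110747145, with 11.0 and 11.2 at P0 and 11.9 and 11.4 at P8. Also in Ccdc12 was the highest of the 7 P0-only sites, chr9:110676587-110676885, with 5.80 and 5.49, and no P0-only site lay inside Pth1r.

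The transcription factors held most of the sites by number. The windows of Gli2 and Gli3 were the widest, at 320 and 366 kb, against 106 to 192 kb for the other members. Gli2 (chr1:118834061-119054405, minus strand), the main activator of the pathway, had the most peaks of the members at P0, though fewer than Gli3 at P8, and the widest gap between passages in number. Its window, with no other gene in it, held 54 and 58 peaks in the P0 libraries and 19 and 23 in the P8 libraries, a ratio of 2.67. The ratio lay above the 90th percentile of 1.88 among genes with at least 10 P0 peaks, a set picked by P0 peaks alone. With equal peak numbers the numbers were 34 and 32 against 19 and 22. Of its 69 sites, 23 (33.3%) had a peak in both P0 libraries but neither P8 library, 18 of them inside the gene, and 15 had a peak in all 4. The highest P0-only site, chr1:118955835-118956091, lay 97.5 kb downstream of the start and had fold enrichment of 8.54 and 8.22 from 24 and 20 tags.

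The start of Gli2, chr1:119053366-119053940, held a peak in all 4 libraries. Its fold enrichment was 7.07 and 7.35 at P0 against 8.20 and 7.56 at P8. In scaled pileup the start had 38.7 and 39.7 at P0 and 25.9 and 26 at P8. Of the 15 shared sites, 5 were higher at P0 in fold enrichment and 5 at P8, against 49.9% and 11.6% of the shared sites of the series. In scaled pileup the counts were 10 and 1, against 50.1% and 15.7%. The highest site of the window, chr1:118916443-118917123, 136 kb downstream, had 13.5 and 13.9 at P0 and 11.4 and 14.8 at P8, which overlapped, and scaled pileup of 49.1 and 50.4 against 24.9 and 38, which did not. At chr1:118812144-118812661, beyond the 3′ end of the gene, the P0 values of 10.2 and 13.3 lay well above the P8 values of 4.45 and 5.05. The reverse was seen at chr1:118976465-118977093, inside the gene, with 7.14 and 7.55 at P0 and 10.9 and 11.4 at P8. That held in fold enrichment alone, since the scaled pileup there was 36.7 and 40.5 at P0 against 35.4 and 41 at P8. Gli2 also held the only site of the 241 with a peak in both P8 libraries but neither P0 library, chr1:118852053-118852274, 201 kb downstream of the start, with 5.93 and 5.56 from 11 and 10 tags. The 3 protein-coding genes nearest to Gli2 in peak numbers over the 4 libraries, by Euclidean distance, were Ldlrad3 (53, 48, 19 and 23 peaks, distance 10.05), Sorbs2 (63, 59, 24 and 24, distance 10.4) and Tiam1 (61, 52, 25 and 30, distance 13.0).

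**Figure D5:**
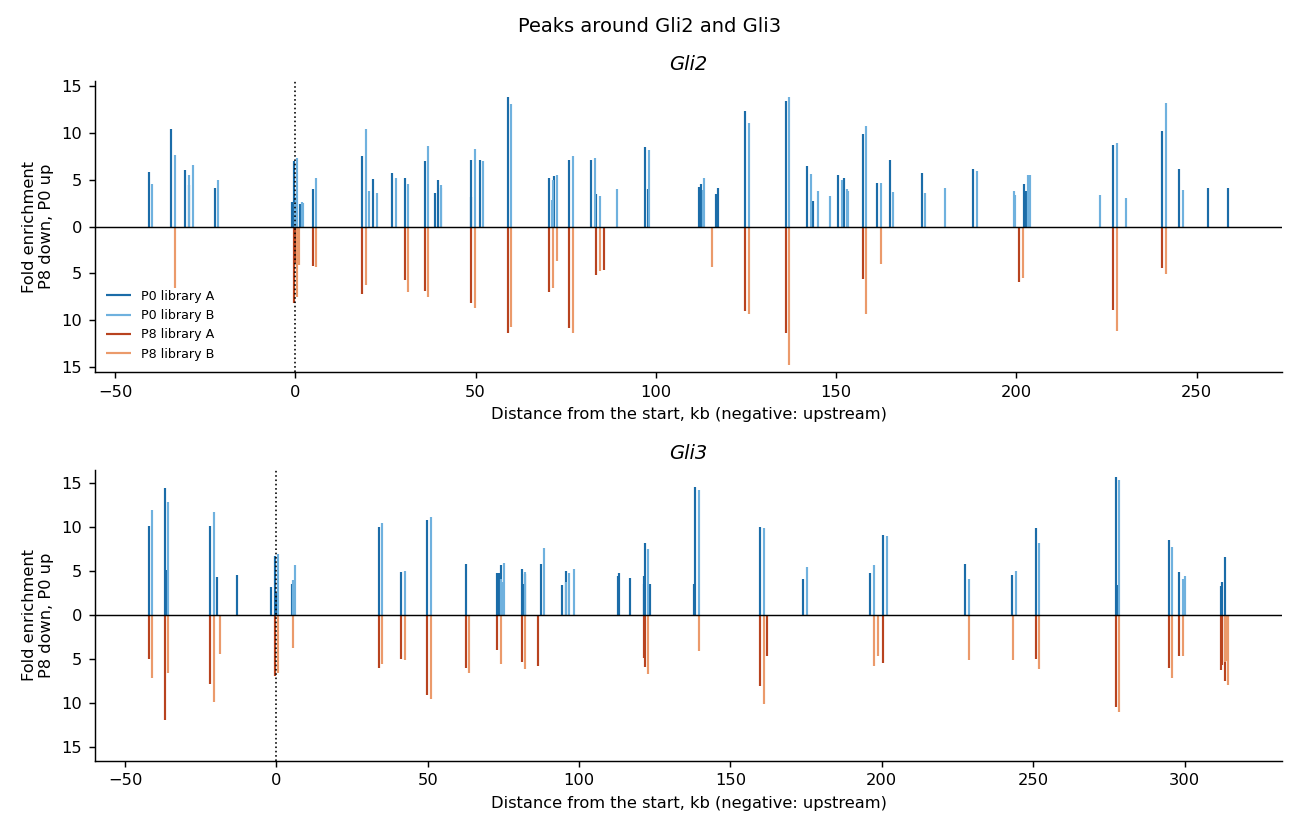
Fold enrichment (vertical axis, P0 libraries upward and P8 libraries downward) of every site against its distance from the start in kb (horizontal axis, negative upstream) for Gli2 and Gli3, with 1 line per library and the lines of libraries A and B set slightly apart. Lines without a counterpart below the axis are denser for Gli2, with 23 P0-only sites of 69, than for Gli3, with 8 of 55.

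Gli3 (chr13:15463723-15730026, plus strand), which acts mainly as a repressor, had a narrower gap. Its window held 50 and 34 peaks at P0 and 26 and 29 at P8, and leaving out P0 library A, the deepest, brought the ratio from 1.53 to 1.24. With equal peak numbers the numbers were 29 and 28 against 26 and 26. The start, chr13:15462716-15464041, had fold enrichment of 6.74 and 6.93 at P0 and 6.90 and 6.60 at P8, which overlapped, and scaled pileup of 49.8 and 52.1 against 32.6 and 36, which did not. Of its 15 shared sites, 9 were higher at P0 in fold enrichment and 1 at P8, against 49.9% and 11.6% of the series, and 10 and 1 in scaled pileup, the same counts as for Gli2. The highest, chr13:15741524-15742221, lay beyond the 3′ end, 278 kb downstream of the start, with 15.7 and 15.3 at P0 and 10.4 and 11.0 at P8. A site 139 kb downstream inside the gene, chr13:15602690-15603244, had 14.5 and 14.2 at P0, 4.04 in P8 library B and no peak in P8 library A. The highest of the 8 P0-only sites was chr13:15551588-15551823, with 5.87 and 7.61. At 3 neighbouring sites from 313 to 314 kb downstream, a peak was present in P0 library A and both P8 libraries, and the one nearest the edge of the window had 6.62 in P0 library A and 7.43 and 7.87 at P8.

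Gli1 (chr10:127329882-127341579), an activator that is itself switched on by the pathway, lay among many genes. Its window held 19 and 23 peaks at P0 and 14 and 17 at P8, but 15 of its 22 sites lay in neighbours such as Mars1, Mbd6, Ddit3 and Inhbe, and 2 lay in Gli1. Both sites in Gli1 had a peak in all 4 libraries. The higher, chr10:127338876-127339575, had fold enrichment of 8.30 and 8.27 at P0 and 5.96 and 7.96 at P8. The other, chr10:127339855-127340158, had 5.36 and 5.09 at P0 and 4.60 and 4.21 at P8, so each was lower at P8. The nearest peak outside the gene, chr10:127342288-127342558, 709 bp from the nearer gene end, was present in every library but P8 library A, with 4.49 and 5.53 at P0 and 4.87 in P8 library B. The highest value of the window was in Mars1, chr10:127311099-127311976, with 11.2 and 11.6 at P0 and 10.6 and 9.50 at P8. In Inhbe, which encodes an inhibin subunit, chr10:127350646-127350966 had 9.30 and 10.8 at P0 and 3.95 and 5.73 at P8. The highest P0-only site was in Arhgap9, chr10:127324637-127324748, with 6.23 and 4.50.

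The inhibitor Hhip (chr8:79965850-80058060, minus strand), which binds and sequesters Hedgehog ligands, had few peaks. The window held 5 and 7 peaks at P0 and 3 and 4 at P8, in 6 sites. The start site, chr8:80057291-80058122, had fold enrichment of 5.66 and 6.21 from 15 tags in each P0 library and no peak in either P8 library. It was the only P0-only site of the gene, and it covers the CRE letters of the promoter printed above. Inside the gene, 62.4 kb downstream, chr8:79995040-79995599 had 10.7 and 8.70 at P0, 4.04 in P8 library B and no peak in P8 library A. The highest site, chr8:79940842-79941452, lay beyond the 3′ end, 117 kb downstream of the start, with 11.0 and 13.7 at P0 and 4.94 and 8.59 at P8. A single site, chr8:79942247-79942337, held a peak in P8 library B alone (7.07).

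At the level of starts, 5 of the 9 genes (Pthlh, Pth1r, Smo, Gli2 and Gli3) had a start peak in all 4 libraries. These were 5 of the 8 members with a listed start, against 55.0% of the 17492 such genes. Ihh and Hhip had theirs at P0 only, and Ptch1 and Gli1 had a start peak in 2 and 3 libraries. Within 1 kb of the start the count was 6, because Ptch1 joined.

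The other genes of the pathways were taken from 2 lists chosen by name. Of 17 further Hedgehog genes, 10 had more peaks in both P0 libraries, none had more in both P8 libraries and 7 overlapped, where 48.3% of all genes and 59.8% of those with at least 10 P0 peaks had more in both P0 libraries. The median ratio was 1.35, near the 1.32 of genes with at least 10 P0 peaks. Among them, the co-receptors had more peaks at P0: Boc had 31 and 26 peaks at P0 and 16 and 20 at P8, Gas1 had 12 and 11 against 8 and 9, and Cdon had 24 and 25 against 19 and 20. Sufu, which holds Gli proteins in the cytoplasm, had 42 and 29 against 22 and 25, and Disp1, which releases the ligand from the sending cell, had 28 and 27 against 18 and 16. Kif7, a kinesin of the cilium that acts on Gli proteins, overlapped, with 13 and 14 against 10 and 15. Beside the 55.0% of all genes, start peaks were present in all 4 libraries for 11 of the 17 and in none for 4, namely the ligands Shh and Dhh, Cdon and the receptor Gpr161.

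Of 12 genes of PTHrP signalling and its targets, 8 had more peaks in both P0 libraries, none had more in both P8 libraries and 4 overlapped, against the same 48.3% and 59.8%. The median ratio was 1.47, against 1.32. Runx3, a transcription factor of chondrocyte maturation, had the highest ratio of the list, with 30 and 21 peaks at P0 and 10 and 11 at P8, a ratio of 2.43. Runx2, which drives hypertrophy, had 39 and 38 against 21 and 22, and Hdac4, which restrains it, had 41 and 25 against 15 and 21. Gnas, which encodes the G protein subunit coupled to Pth1r, had 22 and 16 against 8 and 14, and Mef2c had 29 and 26 against 19 and 20. Prkaca and Creb1, a kinase subunit and a transcription factor of the cAMP response, overlapped between passages (18 and 13 against 13 and 14, and 16 and 15 against 12 and 15). Start peaks were present in all 4 libraries for 10 of the 12, where the share of all genes was 55.0%. Pth had none, and Col10a1, the collagen of hypertrophic cartilage, lacked one in P8 library B.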

How the data were processed

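ATAC-seq libraries of P0 and P8 chondrocytes (2 each, 50 bp paired reads) had been aligned with Bowtie2 to mm10 (GRCm38) and called with MACS2 at default settings for each library, according to the study's methods and the submitters' processing notes, which also name ChIPseeker, DiffBind and HOMER; tool versions are not given in the sources used here. The deposited peak lists give for each peak a signal value (the tag pileup at the summit), a fold enrichment ratio over the local background, and −log10 p-values and q-values, as the authors' caller wrote them. A deposited table of differential peaks, with the authors' fold changes and p-values, was not used. Both lists of a passage are merged in one file, libraries were told apart by peak name prefixes, and 0 columns of values per library were left unused.

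Peaks were assigned to genes by RefSeq positions, and overlapping peaks were merged into sites, taking the highest value per library (Python 3.11.15, pandas 2.3.3, numpy 2.4.6, scipy 1.17.1, matplotlib 3.10.9). For 100% of peaks the −log10 p equalled the Poisson value from pileup and background within 0.01, which gave the background and the matched threshold of 3.38. Counting and merging recovered 100% of simulated sites. With 2 libraries per passage, the exact two-sided permutation test cannot go below 0.33. Named for each member were the peak nearest the start, the highest site and the highest site of 1 passage alone; all further sites were chosen after seeing values. The members and lists were chosen with earlier results of these data known. The alternatives were other windows (10 kb, 100 kb, gene body), nearest gene, −log10 p of at least 5 or 10, matched background, reciprocal overlap and leaving out each library; equal peak numbers and scaled pileup were added after seeing the data.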

Additional observations from a re-analysis of the deposited data

How the results depend on the processing

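The excess of P0 peaks in the 9 windows kept its direction under every alternative run, with ratios from 1.29 with equal peak numbers to 2.05 (gene body only), and 2.02 at a −log10 p of at least 10. The 8 genes with more peaks in both P0 libraries numbered 7 by nearest gene and 8 to 9 with 1 library left out. The share of all genes was not taken in these settings. With 1 library left out, groups separate more easily for every gene, so 8 to 9 is no measure of how firm the count is. Pthlh had a ratio of 2.33, and of 1.17 in windows of 10 kb, and Hhip 1.71, and 4 in windows of 10 kb and in the gene body. Leaving out 1 library each gave ratios from 1.67 to 1.87. Equal peak numbers turned the ratio of median fold enrichment from 0.93 to 1.03 and that of Smo peaks from 1.11 to 0.963. The range for Smo with 1 library left out was 0.929 (without P0 library A) to 1.29. The Smo ratio was higher in the gene body (1.43) and at a −log10 p of at least 10 (1.69 ± 0.29). P0-only sites, 51 in all, numbered 33 in the gene bodies, 30 at a −log10 p of at least 10 and 29 with equal peak numbers, and 56 to 103 with 1 library left out, where a single library then stands for a passage (103 without P0 library B, 84 without P0 library A). The 1 P8-only site became 3 in windows of 100 kb, 3 at a −log10 p of at least 5, 0 at 10 and 2 at matched background. It became 7 with equal peak numbers and 1 to 9 with 1 library left out (8 without P0 library A, 9 without P8 library A, 6 without P8 library B). Sites shared by all 4 libraries, 76 in all, numbered 45 in windows of 10 kb, 37 in gene bodies and 34 at a −log10 p of at least 10. The reciprocal overlap of 50% counted peaks of library A and not sites. It gave 13 P8-only peaks of P8 library A and 35 shared peaks of P0 library A, which do not compare with the site counts. The smaller windows and stricter thresholds hold fewer peaks by construction. In windows of 10 kb, in gene bodies and by nearest gene, Ihh had no P8 peak, so no ratio was had. Equal peak numbers and scaled pileup were chosen after seeing the data. No paired analysis was possible because the peak names do not carry the replicate numbers of the labels. With 2 libraries per passage and no read totals, a missing peak near the threshold cannot be told apart from shallow sequencing.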
